A study of Mus musculus with 4 samples.

Results

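A set of 10 marker genes of intestinal stem cells was followed in mouse primary intestinal epithelial cells: Lgr5, Ascl2, Olfm4, Smoc2, Axin2, Sox9, Rnf43, Ephb2, Bmi1 and Lrig1. The members were taken by gene symbol from the platform annotation, which listed 9 of the 10 names with 19 probe sets, among 18193 genes and 34945 probe sets with 1 symbol. Ephb2, a receptor tyrosine kinase that is graded along the crypt, had no probe set under its name in that annotation and is not analysed here. Isolated mouse crypts had been cultured on fibronectin in medium with serum and insulin. For 6 h the cells were given IL-17A at 50 ng/ml, FGF2 at 5 ng/ml, or both of them (IL-17A plus FGF2), and the controls had neither (UN). Each of the 4 groups had 1 Affymetrix expression array, so there was no replicate, no test was possible, and each difference below is a difference between arrays. Strain, genotype, age, number of animals and the culture time of untreated cells were not given in the sources used here, nor was any removal of stromal, endothelial or immune cells.

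The intestinal epithelium is renewed from stem cells at the crypt base, whose state depends on Wnt signalling that is amplified by R-spondins. Lgr5 is an R-spondin receptor and Ascl2 a Wnt-driven transcription factor of these crypt base columnar cells. Olfm4 and Smoc2 encode secreted proteins that mark the same cells, and Smoc2 is also made by stromal cells. Axin2, a scaffold of the beta-catenin destruction complex, and Rnf43, a ubiquitin ligase that removes Frizzled receptors from the cell surface, are Wnt targets that feed back on the pathway. Sox9 is a transcription factor of the crypt base and of glia. Bmi1, a Polycomb protein, and Lrig1, a brake on ErbB receptors, have been used as markers of slower-cycling crypt cells, and both are expressed in many cell types.

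The values are MAS5 signals, deposited on the log2 scale and given here as linear signals. A floor was set at the pooled median signal (89.8, log2 6.49), signals under it were raised to it in every ratio, and a gene over it on at least 1 array is called measured. A gene was represented by its brightest probe set. By this rule 6 of the 9 listed members were measured, against 67.4% of all genes. Smoc2, Sox9, Rnf43, Bmi1 and Lrig1 were over the floor on all 4 arrays, and Axin2 on the IL-17A array alone. Lgr5, Ascl2 and Olfm4, the markers most particular to crypt base columnar cells, were not measured on any array, so the name stem cell markers stands here for the list and not for a stem cell signature seen in these cells. In the ratios a probe set's signal is compared only with itself across arrays. The summed signals of gene lists below add different probe sets, also those of genes not measured, and depend most on the bright ones.

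Promoter sequences of 7 of the 10 named members were in the RefSeq-derived table for build GRCm38.p6, as 8 windows that run from 250 bases before to 50 bases after the transcription start. They were searched on both strands for CTTTGA, the core letters of a TCF/LEF site through which Wnt signalling acts, and for an NF-kB type site, GGG and then TTTCC with any 2 bases between them. The TCF/LEF letters were in 0 of the 8 windows and in 16.0% of 32851 promoter windows of the table. The NF-kB type letters were in 1 of the 8 windows, that of Olfm4, and in 1.63% of the table. The Olfm4 window is shown for this match, in capitals, which lies on the minus strand relative to the gene and begins 51 bases before the start. The Rnf43 windows, of its 2 annotated starts, are shown because Rnf43 was the member furthest below UN. A match is a description of letters, and the absence of one says only that these letters are not in the window.
Olfm4, chr14:80000052-80000351, plus strand: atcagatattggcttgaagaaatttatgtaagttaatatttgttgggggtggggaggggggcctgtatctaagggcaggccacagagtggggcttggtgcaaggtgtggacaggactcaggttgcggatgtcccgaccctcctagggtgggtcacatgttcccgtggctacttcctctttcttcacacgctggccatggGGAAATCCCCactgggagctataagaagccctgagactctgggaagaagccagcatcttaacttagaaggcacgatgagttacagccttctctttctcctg
Rnf43, chr11:87662837-87663136, plus strand: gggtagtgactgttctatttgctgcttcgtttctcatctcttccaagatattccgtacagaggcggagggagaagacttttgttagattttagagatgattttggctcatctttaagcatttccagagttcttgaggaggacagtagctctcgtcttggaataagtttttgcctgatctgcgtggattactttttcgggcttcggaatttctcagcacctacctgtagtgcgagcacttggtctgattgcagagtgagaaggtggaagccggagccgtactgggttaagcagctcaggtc
Rnf43, chr11:87699647-87699946, plus strand: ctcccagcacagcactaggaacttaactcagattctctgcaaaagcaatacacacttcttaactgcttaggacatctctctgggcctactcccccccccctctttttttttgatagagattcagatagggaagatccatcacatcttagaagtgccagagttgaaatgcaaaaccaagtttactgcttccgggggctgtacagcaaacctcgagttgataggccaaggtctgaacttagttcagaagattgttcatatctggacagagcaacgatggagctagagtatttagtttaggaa

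Of the crypt base columnar markers, Lgr5, Ascl2 and Olfm4 stayed under the floor in every group. The brighter Lgr5 probe set had a signal of 37.7 with IL-17A, 30.7 with FGF2 and 26.7 with both, against 52.5 in UN cells. UN cells thus had the highest of 4 dim signals. The other Lgr5 probe set had 19.0 with IL-17A, 27.5 with FGF2 and 30.3 with both, against 26.4 in UN cells, so it did not keep that order. Olfm4 had a signal of 58.1 with IL-17A, 4.31 with FGF2 and 47.7 with both, against 36.1 in UN cells. The FGF2 array was the low one, and the NF-kB type letters shown above belong to a gene whose signals all lay below the floor. The 3 probe sets of Ascl2 had signals of at most 19.7 over all arrays. No direction is drawn from signals this low, where MAS5 values are noisy.

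Smoc2 was the crypt base marker that was measured, and its signal was highest with FGF2 alone. Its brightest probe set had 1056 with IL-17A, 1468 with FGF2 and 1166 with both, against 930 in UN cells. The second probe set had 283 with IL-17A, 308 with FGF2 and 234 with both, against 198 in UN cells. All 3 stimulated arrays were above UN on both probe sets, and the FGF2 array was the highest on each. With FGF2 alone the signal was 1.58-fold and 1.56-fold that of UN cells on the 2 probe sets. With IL-17A alone it was 1.14-fold and 1.43-fold, and with both factors the log2 ratio was 0.33 and 0.24. In this pair of arrays Smoc2 was the 1 of 6 measured members at least 1.5-fold higher with FGF2, a range that held 2.34% of 12258 measured genes.

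**Figure D1:**
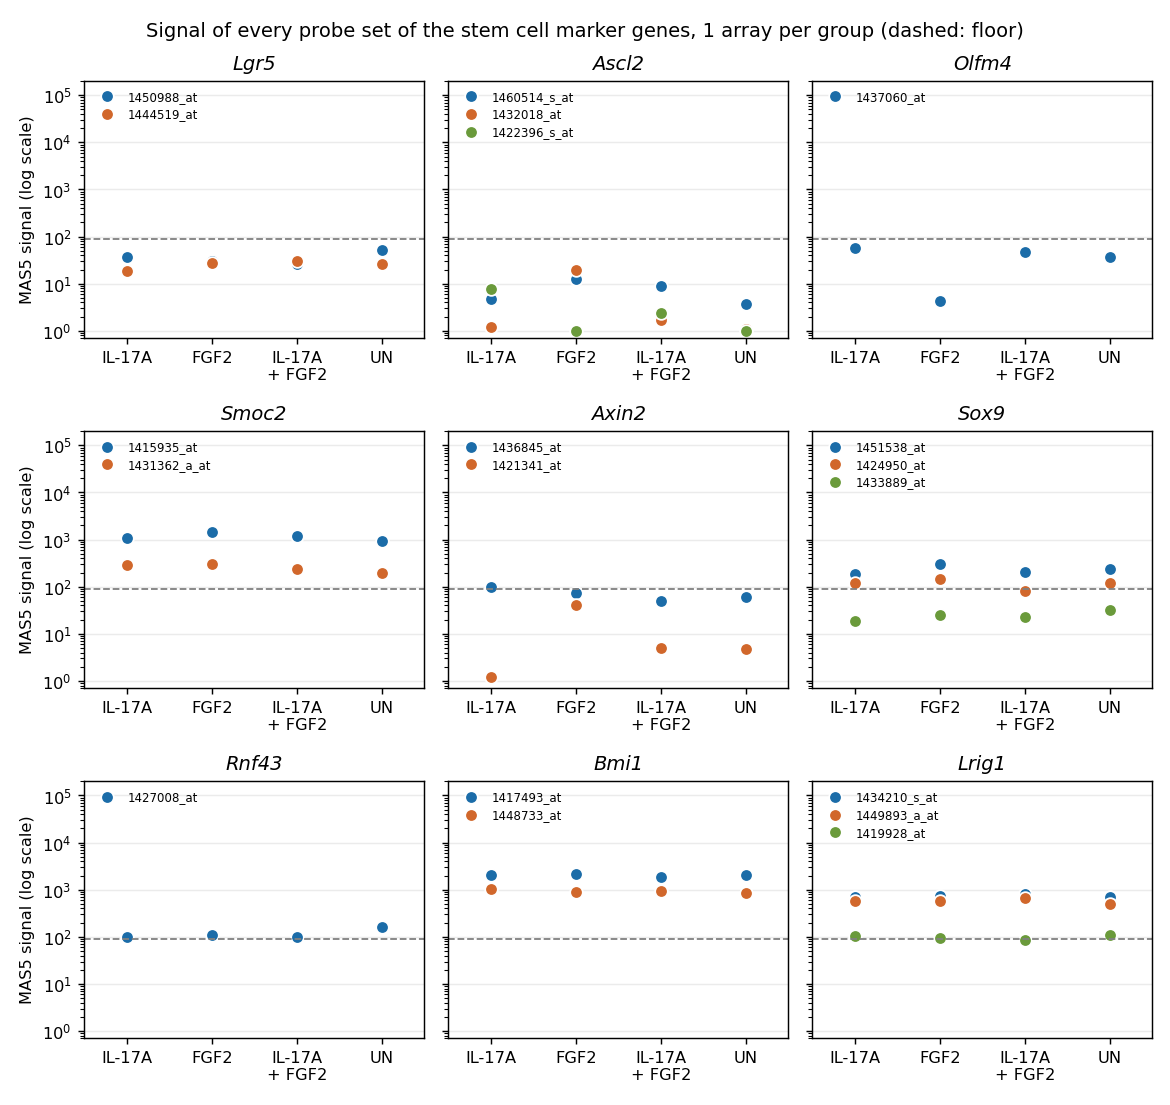
MAS5 signal (log scale) of all 19 probe sets of the 9 listed members on the 4 arrays, 1 point per array, with the floor of 89.8 as a dashed line. Lgr5, Ascl2 and Olfm4 lie below the line on every array, while Smoc2, Bmi1 and the brightest probe sets of Lrig1 and Sox9 lie above it.

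The difference that went with FGF2 was smaller for Smoc2 on the arrays with IL-17A, a pair that shares no array with FGF2 and UN. IL-17A plus FGF2 gave 1166, against 1056 with IL-17A, a log2 ratio of 0.14 in the brightest probe set. On the second probe set the same pair was 1.21-fold lower (234 against 283). For IL-17A, the reading without FGF2 was a log2 ratio of 0.18 and that with FGF2 (both over FGF2) was −0.33. The log2 difference from additivity, combined minus IL-17A minus FGF2 plus UN, was −0.52 for the brightest probe set and −0.91 for the second. Over 3257 measured genes with a mean log2 signal of 10 to 12, like the brightest probe set, this quantity had an SD of 0.18 and central 95% limits of −0.35 and 0.40. Over the 3407 genes under 8, like the second probe set, the limits were −0.82 and 0.86. Both probe sets thus lay below the lower limit of genes of like brightness, in a quantity that rests on 4 single arrays.

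Fibroblast and smooth muscle markers, were listed because stromal cells also make Smoc2. All 16 were measured, with a summed signal of 114363 with IL-17A, 93456 with FGF2 and 95938 with both, against 109132 in UN cells. Their median log2 ratio to UN was 0.08 with IL-17A, −0.39 with FGF2 and −0.43 with both. Above UN were 10, 3 and 4 of the 16, where 45.1%, 46.1% and 48.2% of all measured genes were. Dpt, a matrix protein gene, had a signal of 274 with FGF2 against 1231 in UN cells. Dcn, the decorin gene, had 13120 with IL-17A, 12918 with FGF2 and 15772 with both, against 10811 in UN cells, so the markers did not all lie on the same side of UN. The part of these cells in the Smoc2 values was not tested. In bulk samples, fewer cells of a type and less RNA per cell cannot be told apart.

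Rnf43, the Frizzled-removing ligase, had a lower signal on every stimulated array than in UN cells. Its single probe set had 97.0 with IL-17A, 107 with FGF2 and 99.1 with both, against 160 in UN cells. The 3 stimulated arrays lay close together and just over the floor of 89.8. Rnf43 was 1.65-fold lower with IL-17A, 1.48-fold lower with FGF2 and 1.61-fold lower with both. With IL-17A it was the 1 of 6 measured members at least 1.5-fold lower, a range that held 1.95% of measured genes. With both factors it was again the 1 of 6, against 6.52% of measured genes, but under quantile normalization and median centring its log2 ratio there was −0.56 and −0.53, short of 1.5-fold. Adding the floor to all signals gave −0.42 with IL-17A and −0.40 with both, also short of it. The combined array differed from those of the single factors by little, at a log2 ratio of 0.03 to IL-17A and −0.12 to FGF2. Its difference from additivity, 0.60, lay inside the central 95% limits of genes of like brightness (−0.82 and 0.86).

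Most enterocyte markers were also lower on the 3 stimulated arrays, and their part in the Rnf43 values was not tested. Of 15 measured enterocyte genes, 11 were at least 1.5-fold lower with IL-17A, 4 with FGF2 and 13 with both. The shares of all measured genes were 1.95%, 4.82% and 6.52%. The enterocyte median log2 ratios were −0.88, −0.49 and −1.12. On each stimulated array 14 of the 15 enterocyte genes were below UN. Of all measured genes 52.8%, 51.6% and 49.6% were below UN with IL-17A, FGF2 and both. The enterocyte summed signal was 36524 with IL-17A, 45552 with FGF2 and 33013 with both, against 51614 in UN cells. The defining markers Fabp1 and Lct were under the floor on every array. The chloride-bicarbonate exchanger gene Slc26a3 had the lowest ratio of the list with both factors (signal 193 against 740 in UN cells), followed by the fatty acid-binding protein gene Fabp2 (910 against 3058). Krt20 had the highest ratio and gave a large part of the summed signal. It differed little between arrays, with 18547 with IL-17A, 20581 with FGF2 and 19681 with both, against 19235 in UN cells. General epithelial markers, all 11 measured, had medians of −0.01, 0.10 and 0.05, with a summed signal of 130213, 133091 and 135202 with IL-17A, FGF2 and both, against 126819 in UN cells.

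Axin2 was close to the floor. The brighter probe set had a signal of 101 with IL-17A, 72.1 with FGF2 and 49.2 with both, against 60.8 in UN cells. Only the IL-17A array passed the floor. It was at least 1.12-fold above UN and above the array with both factors, and ratios between the arrays under the floor have no value. The second probe set was under the floor throughout, at 1.23 with IL-17A, 41.2 with FGF2 and 4.97 with both, against 4.80 in UN cells. On that probe set the IL-17A array was the lowest, so the probe sets did not place the groups in the same order.

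Sox9 was higher with FGF2 alone and lower wherever IL-17A was added, in steps under 1.5-fold for its brightest probe set. That probe set had 189 with IL-17A, 298 with FGF2 and 209 with both, against 236 in UN cells. The FGF2 array was the highest of the 4. The signal with FGF2 was 1.26-fold that of UN cells, and the combined array was 1.43-fold lower than FGF2 alone. The second probe set had 119 with IL-17A, 146 with FGF2 and 82.2 with both, against 120 in UN cells. It again had its highest signal with FGF2 and was at least 1.62-fold lower on the combined array than with FGF2. IL-17A over UN was a log2 ratio of −0.32 for the brightest probe set and −0.02 for the second. The third probe set was under the floor on all arrays. For genes as dim as Sox9 the yardstick SD of a log2 ratio, taken from the spread of additivity, was 0.29, so the steps against UN were about as large as that spread.

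Glial and neuronal markers were listed because Sox9 is also found in glia. Of these 10 genes 8 had a probe set, all of them measured, with a summed signal of 6168 with IL-17A, 5451 with FGF2 and 5937 with both, against 6194 in UN cells. Their median log2 ratio to UN was 0.04 with IL-17A, −0.15 with FGF2 and 0.22 with both. Above UN were 5, 3 and 5 of the 8, where 45.1%, 46.1% and 48.2% of all measured genes were. With so few genes these counts cannot be set apart from those shares. The glial filament gene Gfap had 168 with FGF2 against 476 in UN cells, and the neuronal gene Uchl1 had 1292 against 1029. Goblet and Paneth markers, since Sox9 is also found in Paneth cells, had a summed signal of 43224 with IL-17A, 38524 with FGF2 and 37658 with both, against 48292 in UN cells, with 12 of 13 measured and Pla2g2a under the floor. Their medians were −0.16, −0.45 and −0.53 in the same order. Above UN were 4, 0 and 0 of the 12, beside the same shares of all measured genes. The list mixes both cell types, and the goblet gene Tff3 gave a large part of its sum (16373 with IL-17A, 16775 in UN cells). The Paneth cell gene Mmp7 had 398 with IL-17A, 146 with FGF2 and 241 with both, against 265 in UN cells. Tff3 and Mmp7 had the highest ratios of the list with both factors, and Agr2 and Fcgbp the lowest. Agr2 had 185 with IL-17A, 133 with FGF2 and 70.7 with both, against 548 in UN cells. Fcgbp had 1239 with IL-17A, 778 with FGF2 and 687 with both, against 1154 in UN cells. The part of these cells in the Sox9 values was not tested.

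Bmi1 and Lrig1 differed little between arrays. Bmi1 had 2103 with IL-17A, 2134 with FGF2 and 1875 with both, against 2095 in UN cells, on the brightest probe set. Its second probe set had 1024, 911 and 944 with IL-17A, FGF2 and both, against 849 in UN cells. The highest and lowest arrays differed by 1.14-fold on the brightest and 1.21-fold on the second probe set, and the combined array was below UN on the first and above it on the second. Lrig1 had 687 with IL-17A, 746 with FGF2 and 811 with both, against 704 in UN cells. Its second probe set had 574, 569 and 661, against 499 in UN cells. On both of these the combined array was the highest, at 1.15-fold and 1.32-fold the UN signal. The third Lrig1 probe set, near the floor, went the other way, with 85.3 on the combined array against 107 in UN cells.

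**Figure D2:**
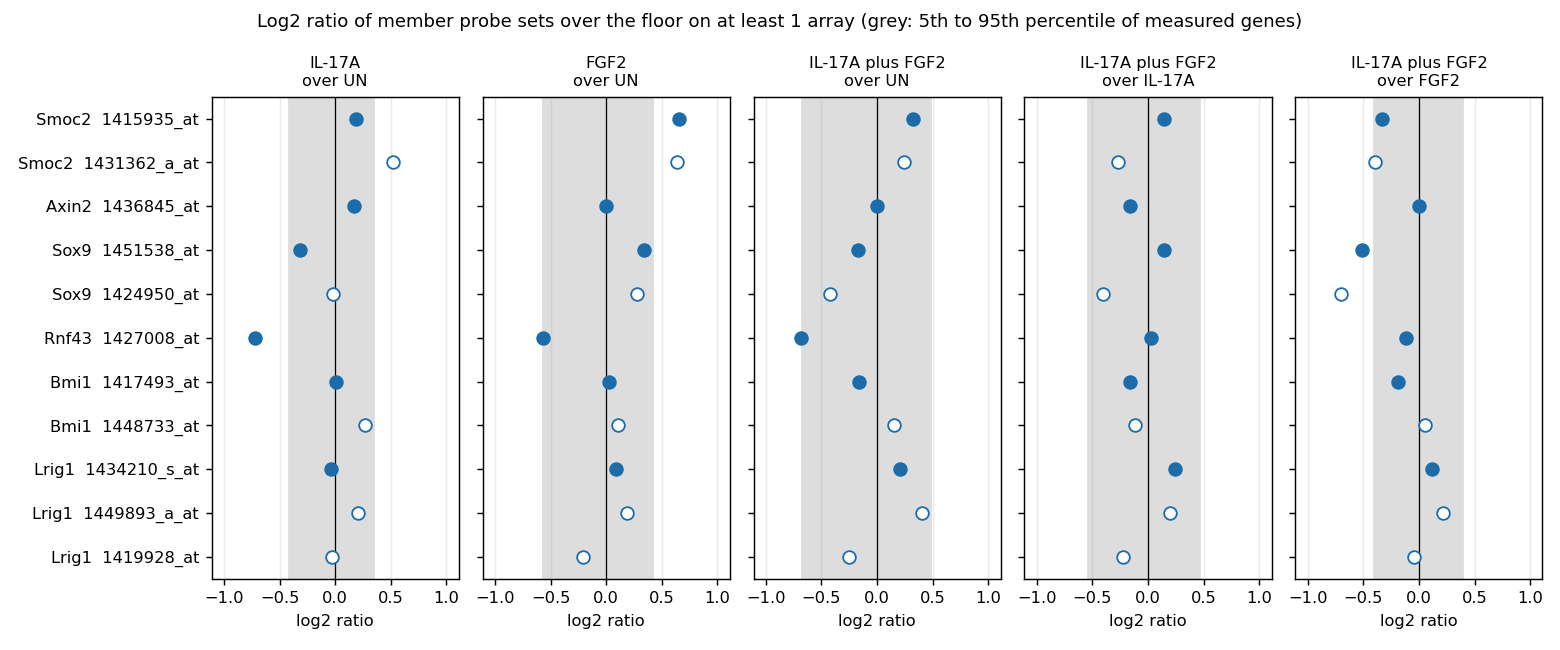
Log2 ratio in 5 pairs of arrays for the 11 member probe sets over the floor on at least 1 array, with filled points for the probe set that represents the gene and grey bands for the 5th to 95th percentile of 12258 measured genes. Smoc2 lies right of the band with FGF2 on both probe sets (0.66 and 0.64) and, on its second, with IL-17A (0.52). Rnf43 lies left of it with IL-17A (−0.72) and with both over UN (−0.69). Sox9 lies left of it with both over FGF2 on 2 probe sets (−0.51 and −0.70). The bands pool genes of all brightness, and dim genes had the wider spread of additivity.

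Over the 6 measured members the median log2 ratio was −0.02 for IL-17A, 0.06 for FGF2 and −0.08 for both over UN, beside −0.01, −0.01 and 0.00 over all measured genes. With both factors over IL-17A it was 0.09, and over FGF2 −0.15, beside 0.00 and 0.00. The members above 0 numbered 3 of 6 with IL-17A, 4 with FGF2 and 2 with both, where 45.1%, 46.1% and 48.2% of measured genes were. Those below 0 numbered 3, 1 and 3, where 52.8%, 51.6% and 49.6% of measured genes were. Axin2 entered as exactly 0 with FGF2 and with both only because those arrays and UN were under the floor. Axin2 counts as measured only through the IL-17A array. A set of the 5 members over the floor on all arrays was a choice made after seeing the data. Its medians over UN were −0.04 with IL-17A, 0.08 with FGF2 and −0.16 with both. Above 0 were 2, 4 and 2 of the 5, beside 45.1%, 46.1% and 48.2% of measured genes. Members at least 1.5-fold higher numbered 0 with IL-17A and 0 with both factors, where 1.44% and 3.34% of measured genes were, and 0 were that much lower with FGF2, where 4.82% were. For the combined array over IL-17A, 0 of 6 members were 1.5-fold higher and 0 lower, where 2.80% and 4.09% of measured genes were. Over FGF2 the counts were 0 and 0, where 1.83% and 2.06% were. The farthest member from 1 in any of the 5 pairs was Rnf43 with IL-17A, at 1.65-fold lower. With so few members, these counts cannot be set apart from the background shares.

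Those shares depended on the scaling of the arrays. Median centring moved the median of all measured genes for the combined array over UN to 0.14, and the shares higher and lower to 6.19% and 4.13%, while quantile normalization gave 4.12% and 5.45%. For FGF2 over UN, median centring gave 3.41% and 3.42%. For both over IL-17A, median centring gave 4.95% and 2.67% and quantile normalization 3.64% and 3.27%. For both over FGF2, they gave 2.65% and 1.65%, and 2.30% and 1.69%.

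**Figure D3:**
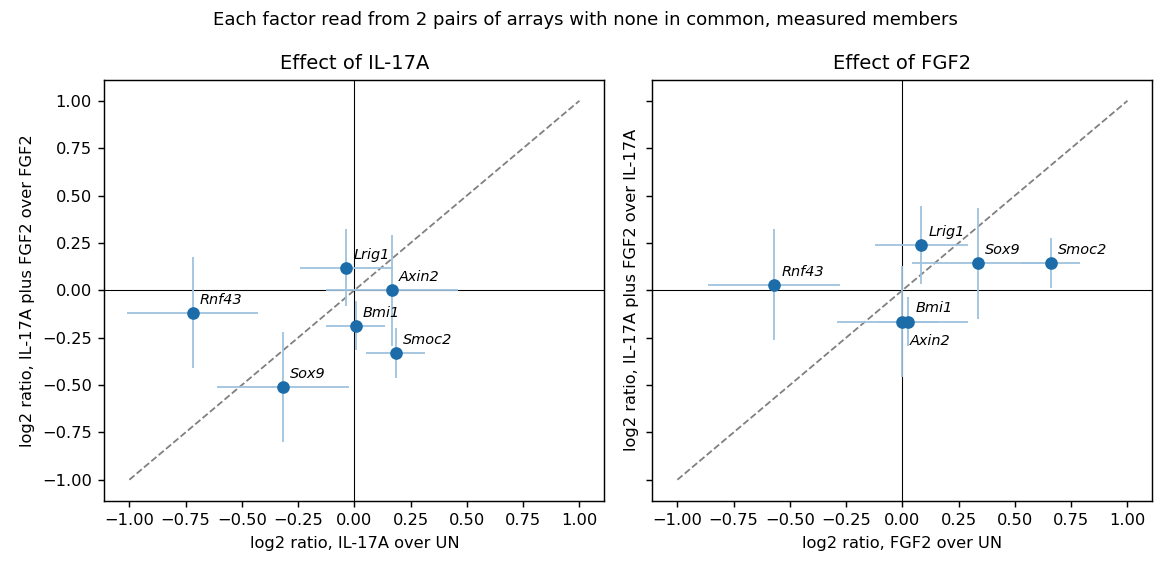
Log2 ratios of the 6 measured members for IL-17A (left) and FGF2 (right), without the other factor on the x axis and with it on the y axis, where bars are 1 SD of a log2 ratio taken from the spread of additivity over genes of like brightness and the dashed line marks equal readings. Smoc2 lies at 0.18 and −0.33 for IL-17A and at 0.66 and 0.14 for FGF2, and Rnf43 at −0.57 and 0.03 for FGF2.

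By distance over the 3 log2 ratios to UN, the genes nearest to Rnf43 among 12257 others were 4933412E12Rik (distance 0.03), the ubiquitin ligase gene Hectd3 (0.07) and the interferon-induced gene Ifit2 (0.11). Ifit2 had signals of 173 with IL-17A, 212 with FGF2 and 181 with both, against 297 in UN cells. Those nearest to Smoc2 were the 7SK RNA-binding protein gene Larp7 (0.02), the ceramide kinase gene Cerk (0.08) and Noa1 (0.08). Larp7 had 601 with IL-17A, 844 with FGF2 and 674 with both, against 537 in UN cells. Likeness over 4 arrays describes shape only.

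Other genes of the stem cell signature were read beside the members. Of 17 with a probe set 14 were measured, and Aqp4, Tnfrsf19 and Tert were under the floor on all arrays. None (0) of the 14 was 1.5-fold higher or lower with IL-17A, where 1.44% and 1.95% of all measured genes were. With FGF2 1 was higher and 0 lower, where 2.34% and 4.82% were. With both 2 were higher and 1 lower, where 3.34% and 6.52% were. The urea transporter gene Slc14a1 led, with a signal of 86.1 with IL-17A, 365 with FGF2 and 339 with both, against 82.3 in UN cells. Both arrays with FGF2 were thus above both without it, by at least 4.07-fold for FGF2 over UN. Mex3a, an RNA-binding protein of slowly cycling crypt cells, was 1.57-fold higher with both factors (489 against 311). Hopx, another marker of reserve cells, was 1.68-fold lower (483 against 811), and Cdca7 1.19-fold lower. The list had a median log2 ratio of 0.01 with IL-17A, 0.04 with FGF2 and 0.26 with both. Over all measured genes the medians were −0.01, −0.01 and 0.00.

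Of 23 other Wnt target and feedback genes with a probe set 19 were measured, and Sp5, Wif1, Dkk1 and Dkk2 were under the floor. With IL-17A 2 were at least 1.5-fold higher and 0 lower, where 1.44% and 1.95% of all measured genes were. With FGF2 the counts were 1 and 1, where 2.34% and 4.82% were. With both they were 1 and 3, where 3.34% and 6.52% were. Lgr6, a relative of Lgr5 that also binds R-spondins, had 134 with IL-17A, 237 with FGF2 and 316 with both, against 129 in UN cells. It was 2.45-fold higher with both factors, and the arrays with FGF2 were above those without. The Wnt inhibitor gene Apcdd1 had 339 with IL-17A, 124 with FGF2 and 180 with both, against 347 in UN cells. Dkk3 had 712 with IL-17A, 382 with FGF2 and 261 with both, against 458 in UN cells. Cd44 was 1.26-fold higher with both. The list's medians were −0.01 with IL-17A, 0.00 with FGF2 and −0.14 with both.

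Genes of injury-induced and fetal-type epithelium had 8 of 15 entries with a probe set under their name, all 8 measured. With both factors all 8 were above UN, by a median log2 ratio of 0.30, where 48.2% of all measured genes were above it. At least 1.5-fold higher were 2 of the 8, where 3.34% of all measured genes were. These were Ereg, the epiregulin gene (18838 against 11987), and Gja1, a connexin gene (13716 against 9129). Anxa3 and S100a6 had the lowest ratios, 0.02 and 0.21. With IL-17A all 8 were above UN as well, at a median of 0.15, and with FGF2 5 of 8 were, at 0.11. The shares of all measured genes above UN were 45.1% with IL-17A and 46.1% with FGF2. Of 18 measured proliferation genes of transit-amplifying cells, 8 were above UN with IL-17A (median −0.04), 17 with FGF2 (0.34) and 17 with both (0.29), where 45.1%, 46.1% and 48.2% of all measured genes were. At least 1.5-fold higher were 0 of the 18 with IL-17A, 3 with FGF2 and 1 with both. The shares of all measured genes were 1.44%, 2.34% and 3.34%. Aurkb, a mitotic kinase gene, had 232 with IL-17A, 327 with FGF2 and 354 with both, against 204 in UN cells. Bub1 was 1.47-fold higher with both. At the low end of the list, Ccnb2 was 1.12-fold lower with both and Ccna2 1.09-fold higher.

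Of other cell types, endothelial markers, 12 of 12 measured, had a summed signal of 9913 with IL-17A, 13846 with FGF2 and 14940 with both, against 10765 in UN cells. Their median log2 ratios were −0.16, 0.36 and 0.48, with 2, 10 and 9 of the 12 above UN. Of all measured genes 45.1%, 46.1% and 48.2% were above UN with IL-17A, FGF2 and both. Immune cell markers, 7 of 10 measured, had 4811 with IL-17A, 6664 with FGF2 and 9318 with both, against 4307 in UN cells, and Cd3e, Itgam and Cd79a were under the floor. Their medians were 0.14 with IL-17A, −0.03 with FGF2 and 0.01 with both. Above UN were 5, 3 and 4 of the 7, beside the same shares of all measured genes. With so few genes these immune counts cannot be set apart from those shares. S100a8 and Cd14 gave much of the sum with both factors: S100a8 had 3740 with both factors against 419 in UN cells, and Cd14, a monocyte receptor gene, had 2640 with FGF2 and 3081 with both against 862. The pan-leukocyte gene Ptprc was 1.59-fold lower with both than in UN cells (151), and the lysozyme gene Lyz2 had 1061 against 1554. Lyz2 was also in the goblet and Paneth list, so it counts in the sums and medians of both lists. The part of these cells in the members' values was not tested.

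**Figure D4:**
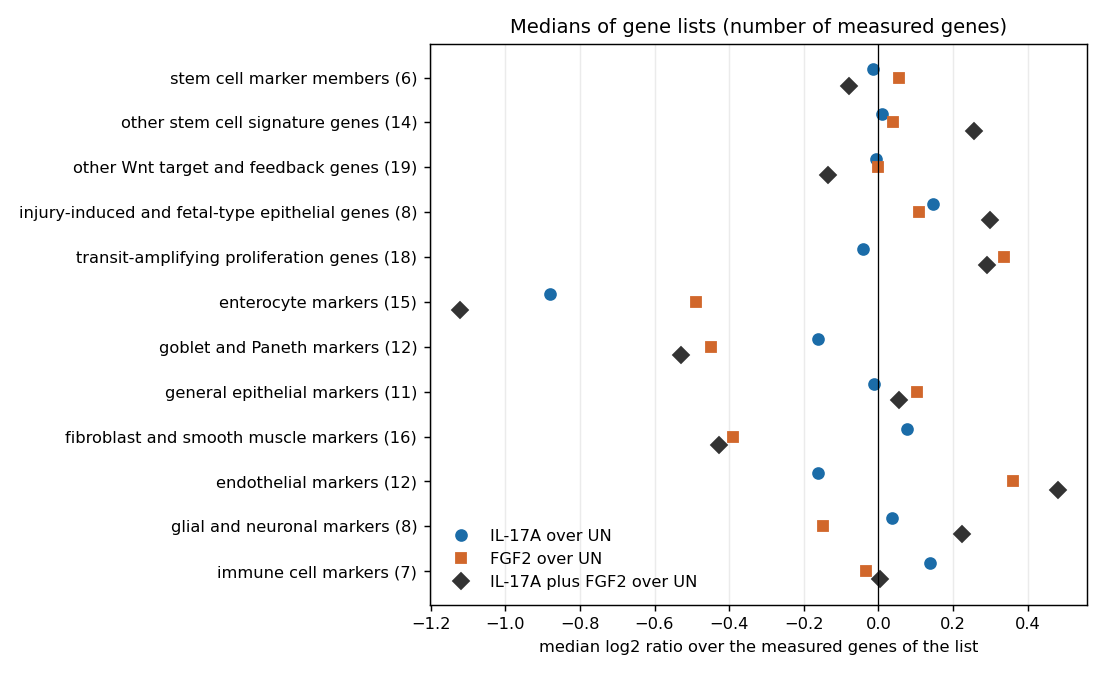
Median log2 ratio over the measured genes of each list (number in brackets) for IL-17A, FGF2 and IL-17A plus FGF2 over UN. The stem cell marker members lie between −0.08 and 0.06, while enterocyte markers lie at −0.88, −0.49 and −1.12.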

How the data were processed

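The authors deposited log2 signals, 1 per probe set and array, made with MAS5 per the submitters' processing notes (version not given in the sources used here). The labelling kit favours 3′ ends of transcripts, per the labels' protocols. After antilog, the 2% trimmed mean was 500 for each of the arrays, which shows a scaling of whole arrays. MAS5 subtracts mismatch probes, so dim values are noisy. No detection calls were used here.

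Of 45101 probe sets, 64 controls were left out, and the platform annotation gave 1 symbol for 34945. Of these, 34741 matched the GRCm38.p6 gene table by Entrez identifier, and 0 symbols changed. The floor, the brightest probe set per gene and the log2 ratios are described with the results. With 1 array per group no test, p-value or replicate error could be had, and the number of arrays limits the precision. The spread of additivity over genes of like brightness served as a yardstick. It contains true interaction, and the floor narrows it for dim genes. The text names every member, the 3 genes nearest in pattern to the 2 members of widest range, and the 2 highest and 2 lowest genes of each pathway list with both factors, with some examples from the cell type lists. Members and lists were chosen with earlier results of these data known. Alternatives were 2 scalings, other floors, other probe set rules and other fold thresholds. Calculations used Python 3.11.15, numpy 2.4.6, pandas 2.3.3 and scipy 1.17.1 and were tested on simulated arrays.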

Additional observations from a re-analysis of the deposited data

Results flagged for a closer look

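The log2 ratio of Smoc2 for IL-17A was 0.18 without FGF2 and −0.33 with it, opposite in direction and each larger than the yardstick SD of 0.13. The difference between the readings was −0.52 on the brightest probe set. Each reading rests on a single array per group, and the difference was not tested.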

How the results depend on the processing

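No paired analysis was possible because each group had 1 array and no replicate. Among the 6 measured members, the median log2 ratio with both factors over UN was −0.08 and moved to 0.20 with the floor at the 75th percentile (signal 465), where 3 members remained over it. Of the member counts, the single gene 1.5-fold higher with FGF2 (Smoc2) became 0 at 2-fold and 2 at the lower threshold tried. The single gene lower with IL-17A (Rnf43) became 0 at 2-fold, with the floor at the 75th percentile and with the floor added. With both factors the gene lower (Rnf43) became 0 at 2-fold, under quantile normalization, median centring, the floor at the 75th percentile and the added floor. At that lower threshold, 1 member was higher with both, 1 lower with FGF2 and 2 lower with both over FGF2, in place of 0. The floor at the 25th percentile (signal 28.2) brought in Lgr5 and Olfm4, for 8 members. Higher with IL-17A were then 2, Axin2 (log2 ratio 0.73) and Olfm4 (0.69), where 4.83% of all measured genes were. Lower with both were 2, Lgr5 (−0.90) and Rnf43 (−0.69), where 10.9% were. Lower with FGF2 was 1, Lgr5 (−0.78), where 9.28% were. Lower with both over IL-17A was 1, Axin2 (−1.04), where 8.93% were. Higher with both over FGF2 was 1, Olfm4 (0.76), where 5.76% were. Smoc2 with FGF2 over UN lay between 0.61 and 0.75 over the 7 alternatives, and its difference from additivity, whose alternatives were added after seeing the data, between −0.71 and −0.48. The alternatives left 111 of 130 list values and 344 of 378 single values within the margin. For log2 values the margin was the yardstick SD, and for counts a factor of 1.5. The single values include Lgr5, Ascl2 and Olfm4, held at 0 by the floor in the main setting and most alternatives. Many of the list counts were 0 in both. The tally is thus no measure of how stable the measured values are. Of the log2 ratios at least 1.5-fold in size, 0 changed sign, but 8 smaller single values and 6 medians did. Without _s_at, _x_at and _a_at probe sets Lrig1 moved to −0.25 with both over UN, in place of 0.20, and to −0.22 with both over IL-17A, in place of 0.24. With the mean of all probe sets Smoc2 moved to −0.06 with both over IL-17A, in place of 0.14. The members' median moved to −0.07 with both over IL-17A, in place of 0.09, at the 25th percentile and without those probe sets. With IL-17A over UN it was between 0.01 and 0.05 under median centring, the floor at the 75th percentile and the mean of all probe sets, in place of −0.02. Under the other alternatives the members' medians moved by less than the yardstick SD of genes of middle brightness (0.20). The dimness of the signals limits Lgr5, Ascl2, Olfm4 and Axin2, and the cause of the changes listed here was not tested.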
